A study of Homo sapiens with 18 samples.

Results

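L428-PAX5 cells making PAX5, a Hodgkin lymphoma line with a restored B-cell transcription factor, were compared with 2 Burkitt lymphoma lines that keep a B-cell program. The comparison took the 3 arrays of L428-PAX5+M and set them against the mean of the Raji and Namalwa group means (3 arrays each), so 9 of the 18 arrays of the series entered it. It covered 18417 genes, which are all genes with a probe set that the platform annotation ties to a single symbol. L428-PAX5 is a derivative of the classical Hodgkin lymphoma line L428 in which mifepristone induces PAX5. L428-PAX5+M and its parent with the same drug, L428+M, had 0.25 nM mifepristone and a treatment time of 5 days, while Raji and Namalwa were untreated. Per the labels, the medium of L428-PAX5 also contained HEPES.

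Cell line, mifepristone and medium therefore cannot be told apart from PAX5 in the comparison with the Burkitt lines. L428-PAX5 is a single derivative line, its uninduced state was not analysed here, and L428+M appears below only to show what the parent line already had. Whether replicates came from separate cultures is not given in the labels, and the p-values therefore reflect array-to-array spread that may be technical. In bulk RNA, fewer cells expressing a gene and less RNA per cell cannot be told apart. All levels are log2 array signals, all differences are log2 differences of L428-PAX5+M minus the Burkitt mean with their standard error (SE), and a difference of 1 is a 2-fold change. A gene passed at a Benjamini-Hochberg adjusted p under 0.05 over all 18417 genes in limma, a linear model that shares information on the spread between genes.

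PAX5 commits lymphoid progenitors to the B lineage. It activates genes for the B-cell receptor chain CD79A, the adaptor BLNK and other parts of B-cell signalling, together with other B-lineage factors, and it represses genes of other lineages and of plasma cells. Hodgkin and Reed-Sternberg cells descend from germinal-centre B cells but have lost most of this program, whereas Burkitt lymphoma cells keep the germinal-centre B-cell phenotype. The comparison asks how much of the B-cell phenotype PAX5 brings back to a Hodgkin line.

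PAX5 itself stood above the Burkitt lines on every L428-PAX5+M array. Its log2 level was 12.70, 12.81 and 12.68 in L428-PAX5+M, against 10.97, 10.94 and 10.77 in Raji and 11.31, 11.07 and 10.85 in Namalwa. The groups did not overlap, and L428-PAX5+M was 3.35-fold higher than the Burkitt mean (difference 1.74 ± 0.26, limma adjusted p = 2.42e-05), 3.57-fold higher than Raji and 3.14-fold higher than Namalwa. L428+M had 8.64, 7.14 and 6.70. The probe set does not tell induced from endogenous PAX5 transcripts.

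The markers of each lymphoma fitted the line names in most cases. Of 7 measured Burkitt and germinal-centre markers, all passed as lower than the Burkitt mean, from MME (CD10) at -6.04 ± 0.15 to MYC at -0.44 ± 0.13, and the call for MYC was lost without L428-PAX5+M replicate 3 (-0.35). The exception among the Burkitt lines was MS4A1 (CD20), whose mean log2 level was 12.03 in Raji but only 6.13 in Namalwa. Of 7 Hodgkin markers, 6 were higher in L428-PAX5+M and FUT4 (CD15) was not called, with means of 7.89 in L428-PAX5+M, 7.67 in Raji and 7.73 in Namalwa. Among the 6, ID2 overlapped with the Burkitt arrays and did not pass against Namalwa (0.62, limma adjusted p = 0.0808). CCL22 and CD70, members of a longer Hodgkin list given below but not of these 7, passed as lower. Over all genes 17.6% were lower and 19.5% higher.

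Across all genes, L428-PAX5+M differed from the Burkitt mean at 6839 of 18417 genes, or 37.1%. Of these, 3249 (17.6% of all genes) were lower in L428-PAX5+M and 3590 (19.5%) were higher, and 1089 (5.91%) and 1564 (8.49%) differed by at least 2-fold. The median difference over all genes was -0.06. For 13852 genes (75.2%) the 95% confidence interval of the difference lay within 2-fold. The L428-PAX5+M arrays did not overlap with the 6 Burkitt arrays at lower levels for 2778 genes (15.1%) and at higher levels for 3013 (16.4%), and at 245 genes (1.33%) L428-PAX5+M passed as higher than one Burkitt line and lower than the other. Across genes, the mean profile of L428-PAX5+M correlated with L428+M at r = 0.974, with Raji at 0.890 and with Namalwa at 0.888, and Raji with Namalwa at 0.948, which is a description over genes that are not independent.

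Genes at the extremes were picked by a rule on level. A gene was called absent from L428-PAX5+M if it was at least 4-fold lower than in each Burkitt line and passed against both lines and their mean, with all 3 L428-PAX5+M arrays under the median of all gene values (7.18) and both Burkitt means above it. The mirror rule, with all 6 Burkitt arrays under that median, defined genes called ectopic. The rules gave 168 absent genes (0.912% of all genes) and 316 ectopic genes (1.72%). Absent here means a dim signal on these arrays and does not show that no transcript was made. Just inside the fold limit lay RGCC (-2.01 against the nearer Burkitt line) and EOMES (2.02), and just outside lay TSHZ1 (-2.0) and KRTAP5-AS1 (2.0).

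**Figure D1:**
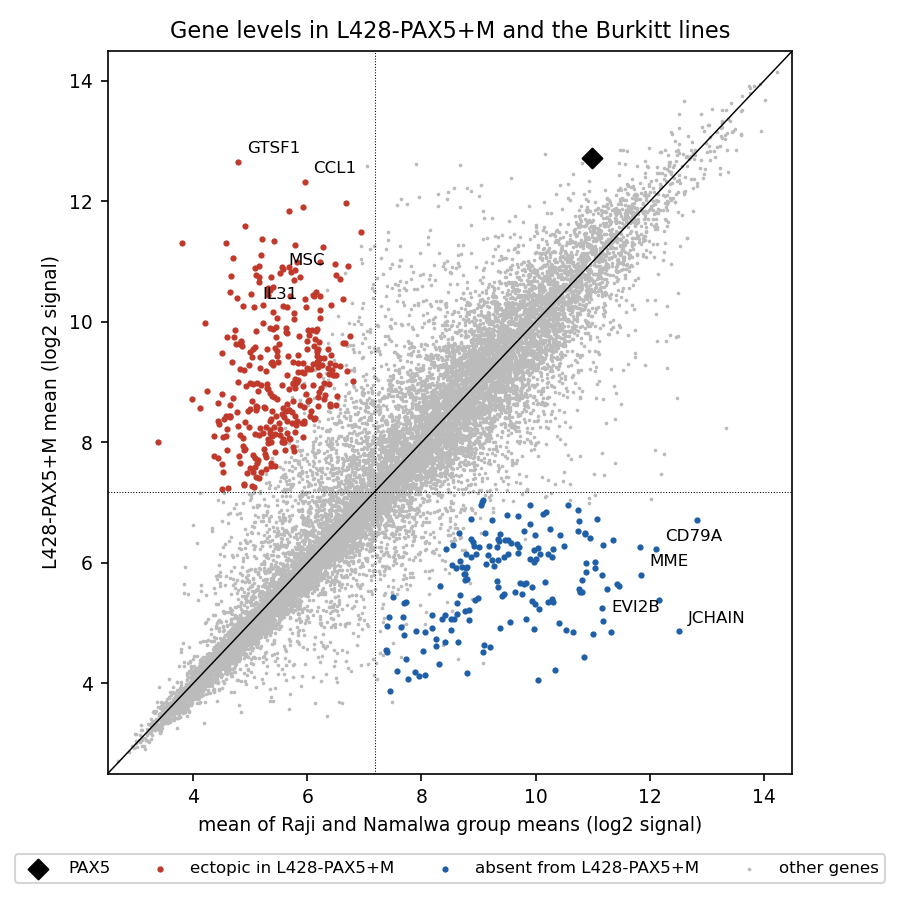
Mean log2 signal of 18417 genes in L428-PAX5+M (vertical axis) against the mean of the Raji and Namalwa group means (horizontal axis). Blue points are the 168 absent genes, red points the 316 ectopic genes, the black diamond is PAX5, the solid line marks equal levels and the dotted lines mark the median of all gene values (7.18).

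Genes of B-cell receptor and immunoglobulin chains were low although PAX5 was above the Burkitt level. All 7 measured members (of 10 listed) were lower in L428-PAX5+M, beside 17.6% of all genes, with a median difference of -2.55 against -0.06 over all genes. The 4 that met the absent rule were CD79A, CD79B, JCHAIN and VPREB3. JCHAIN and VPREB3 are not chains of the mature receptor, and JCHAIN is also listed below as reported to be repressed by PAX5. CD79A, a signalling chain and a direct PAX5 target, had levels of 6.26, 6.26 and 6.18 in L428-PAX5+M, against 12.45, 12.38 and 12.07 in Raji and 12.14, 12.01 and 11.64 in Namalwa. The difference of -5.89 ± 0.14 was 59.1-fold (adjusted p = 3.60e-16). L428+M was at 6.37, 6.24 and 5.78, in the same range as L428-PAX5+M.

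The partner chain CD79B had 6.49, 6.44 and 6.58 in L428-PAX5+M, against 11.24, 11.37 and 11.37 in Raji and 10.32, 10.51 and 10.36 in Namalwa (-4.36 ± 0.13, adjusted p = 6.04e-15). JCHAIN, which joins polymeric immunoglobulin, gave the largest difference of the absent genes, with 5.20, 4.57 and 4.83 in L428-PAX5+M, against 12.32, 12.37 and 12.49 in Raji and 12.39, 12.70 and 12.84 in Namalwa (-7.65 ± 0.16, 201-fold, adjusted p = 5.58e-17). The surrogate light chain gene VPREB3 was lower by -2.55 ± 0.18. The light chain constant region IGKC differed less, by -1.77 ± 0.17, with levels between 8.41 and 8.72 on the L428-PAX5+M arrays, and immunoglobulin genes share sequence with one another, which makes their values uncertain.

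Most coreceptors and surface antigens of B cells were lower too. Of 30 measured members (of 31 listed), 25 were lower, 1 was higher and 4 did not pass, with a median difference of -1.49, and 7 met the absent rule. Lower calls made up 83.3% and higher calls 3.33%, beside 17.6% and 19.5% of all genes. CD22, an inhibitory lectin of the receptor complex, had 5.52, 5.55 and 5.88 in L428-PAX5+M, against 12.03, 11.92 and 11.83 in Raji and 11.05, 10.91 and 10.80 in Namalwa (-5.77 ± 0.14, adjusted p = 3.60e-16). CD180, a Toll-like receptor homologue of B cells, had 4.52, 4.32 and 4.50 in L428-PAX5+M, against 10.68, 10.85 and 11.10 in Raji and 10.82, 10.74 and 10.86 in Namalwa (-6.40 ± 0.11, adjusted p = 1.30e-17). The TNF receptor family member CD27 (-5.56 ± 0.16) and the coreceptor CD72 (-4.07 ± 0.11) were absent in the same sense. In each of these genes every L428-PAX5+M array lay under every Burkitt array, which follows largely from the absent rule.

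A few surface genes were split by Burkitt line. MS4A1 had 4.42, 4.24 and 4.36 in L428-PAX5+M, against 11.82, 11.88 and 12.38 in Raji but 5.78, 5.90 and 6.72 in Namalwa, so that the difference was -7.69 against Raji and -1.79 against Namalwa. CR2, the complement receptor CD21 and a reported PAX5 target, had 6.77, 6.39 and 6.60 in L428-PAX5+M, against 11.20, 11.05 and 10.99 in Raji and 6.45, 6.59 and 6.13 in Namalwa. CR2 in L428-PAX5+M thus overlapped with Namalwa (difference 0.20, adjusted p = 0.584) and was lower than Raji by -4.50 (adjusted p = 5.68e-12). In L428+M it was at 5.25, 4.79 and 4.30. The costimulatory ligand CD86 was the member called higher, with 10.03, 9.90 and 9.94 in L428-PAX5+M, against 7.41, 7.75 and 8.11 in Raji and 5.75, 6.37 and 6.26 in Namalwa (3.02 ± 0.17, adjusted p = 3.06e-11). The 4 members that did not pass were BTLA, FCER2, CD40 and CD24, and the costimulatory receptor CD40 was close to the Burkitt mean at 0.12 ± 0.16 (95% interval -0.22 to 0.47).

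Genes that carry the signal of the B-cell receptor were lower in the majority of members. Of 23 measured signalling genes (of 26 listed), 15 were lower, 2 were higher and 6 did not pass, with a median of -1.70, and 5 met the absent rule. As shares, 65.2% were lower and 8.7% higher, beside 17.6% and 19.5% of all genes. SYK, the kinase recruited to the receptor chains, had 5.26, 5.23 and 5.64 in L428-PAX5+M, against 9.70, 9.81 and 9.51 in Raji and 10.21, 10.17 and 10.17 in Namalwa (-4.55 ± 0.13, adjusted p = 1.73e-15). The kinase BTK had 5.34, 5.01 and 5.38 in L428-PAX5+M, against 10.42, 10.44 and 10.62 in Raji and 9.50, 9.63 and 9.71 in Namalwa (-4.81 ± 0.12, adjusted p = 3.60e-16). BLNK, the adaptor that links SYK to BTK and PLCG2 and a reported PAX5 target, had 5.03, 5.19 and 5.73 in L428-PAX5+M, against 9.76, 9.82 and 9.98 in Raji and 9.99, 10.18 and 10.24 in Namalwa (-4.68 ± 0.16, adjusted p = 2.68e-14). All 3 genes met the absent rule, which largely fixes their gap to the Burkitt arrays, and their L428+M arrays lay between 4.99 and 5.88. Over the whole list, 9 of the 23 genes passed as lower than in L428+M, 1 as higher and 13 did not pass. The median difference to L428+M was -0.21. With the replicate number as a block 10 were lower and 1 higher. Of all genes 6.55% were lower and 9.72% higher than in L428+M, or 9.87% and 13.9% with the block.

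The phospholipase PLCG2, which these kinases act on, had 13.35, 13.23 and 13.10 in L428-PAX5+M, against 13.27, 13.27 and 13.22 in Raji and 13.17, 13.41 and 13.22 in Namalwa. Its groups overlapped, and the difference of -0.03 ± 0.14 had a 95% interval of -0.32 to 0.26. The SRC-family kinase LYN was lower by -0.98 ± 0.17 (adjusted p = 1.14e-04), and its relative BLK by -3.60 ± 0.12. The 2 members called higher were the phosphatase PTPN6 (0.65 ± 0.19) and the RAS activator RASGRP1 (0.73 ± 0.26). PTPN6 was 0.21 from Namalwa (adjusted p = 0.528). Both lost their call without L428-PAX5+M replicate 1 (0.50 and 0.69), RASGRP1 also without L428-PAX5+M replicate 3 (0.63), Namalwa replicate 1 (0.71), Raji replicate 1 (0.69) and Raji replicate 2 (0.72), and RASGRP1 differed from Raji by -0.57 (adjusted p = 0.158).

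**Figure D2:**
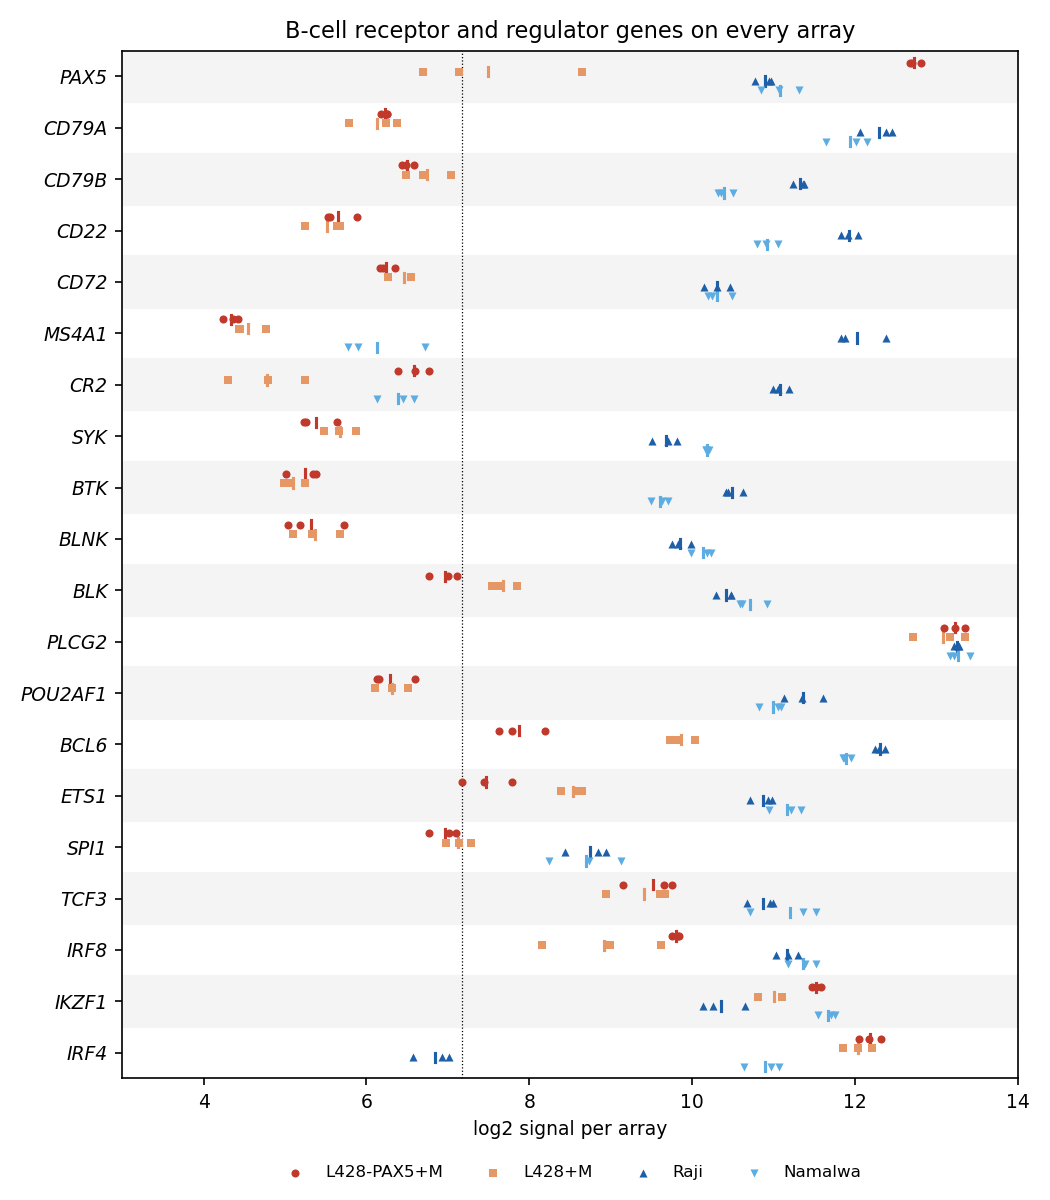
Log2 signal on every array for PAX5 and 19 B-cell receptor, signalling and regulator genes, with L428-PAX5+M above L428+M, Raji and Namalwa in each row, a short bar at each group mean and a dotted line at the median of all gene values (7.18). PAX5 is highest in L428-PAX5+M, while CD79A, CD79B, CD22, SYK, BTK, BLNK and POU2AF1 stay under the line there and PLCG2 is level in all groups.

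B-lineage transcription factors other than PAX5 were mostly below the Burkitt lines but many were well above background. Of 22 measured members (of 24 listed), 17 were lower, 1 was higher and 4 did not pass, with a median of -1.23, and 1 met the absent rule. Lower members were 77.3% and higher ones 4.55%, beside 17.6% and 19.5% of all genes. The absent gene was POU2AF1, the B-cell coactivator of octamer factors, with 6.13, 6.15 and 6.60 in L428-PAX5+M, against 11.35, 11.61 and 11.13 in Raji and 11.10, 11.06 and 10.82 in Namalwa (-4.88 ± 0.15, adjusted p = 5.49e-15). The germinal-centre repressor BCL6 had 8.2, 7.79 and 7.63 in L428-PAX5+M, against 12.25, 12.30 and 12.37 in Raji and 11.95, 11.86 and 11.87 in Namalwa (-4.23 ± 0.14, adjusted p = 1.81e-14). BCL6 was at 9.82, 10.04 and 9.73 in L428+M, so that L428-PAX5+M was further from the Burkitt lines than its parent.

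ETS1, an ETS factor of lymphocytes, had 7.79, 7.17 and 7.45 in L428-PAX5+M, against 10.98, 10.93 and 10.72 in Raji and 11.34, 11.21 and 10.95 in Namalwa (-3.55 ± 0.17, adjusted p = 2.11e-12). Smaller differences were measured for the octamer factor POU2F2 (-1.86 ± 0.15), the ETS factors SPI1 (-1.76 ± 0.17) and SPIB (-1.71 ± 0.26), the E protein TCF3 (-1.52 ± 0.19) and the interferon regulatory factor IRF8 (-1.46 ± 0.24), and all passed. TCF3 had 9.66, 9.75 and 9.15 in L428-PAX5+M, against 10.99, 10.95 and 10.68 in Raji and 11.52, 11.36 and 10.72 in Namalwa. The related E protein TCF12 did not pass (0.15 ± 0.16, 95% interval -0.19 to 0.50).

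IRF4, which drives plasma-cell differentiation and is strongly expressed in Hodgkin cells, was the member called higher. It had 12.17, 12.32 and 12.05 in L428-PAX5+M, against 7.01, 6.57 and 6.92 in Raji and 11.07, 10.97 and 10.64 in Namalwa (3.32 ± 0.14, adjusted p = 3.63e-13), so that it was higher than Raji by 5.34 and than Namalwa by 1.29. Among inhibitors of E proteins, the helix-loop-helix repressor MSC (ABF-1) had 10.89, 10.75 and 10.79 in L428-PAX5+M, against 5.58, 5.33 and 5.58 in Raji and 5.57, 5.64 and 5.48 in Namalwa (5.28 ± 0.20, adjusted p = 1.43e-13). ID2 was higher than the Burkitt mean by 1.30 ± 0.23, with 1.98 against Raji and 0.62 against Namalwa (adjusted p = 0.0808), and ID3 was lower by -3.34 ± 0.24. Of the 5 measured inhibitors, ID1 (0.51 ± 0.30) and ID4 (-0.13 ± 0.14) did not pass.

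Most genes reported as activated by PAX5 in B cells were below the Burkitt level. Of 15 measured genes reported as activated by PAX5 (of 19 listed), 10 were lower in L428-PAX5+M, 1 was higher and 4 did not pass, with a median of -1.31. In percent, 66.7% were lower and 6.67% higher, beside 17.6% and 19.5% of all genes. The higher member was IRF4, and the list shares CD79A, BLNK, CD72, CR2, SPIB, IRF8 and others with the groups above. A second member was called higher without Raji replicate 1. Set against L428+M, 2 of the 15 passed as higher in L428-PAX5+M (CR2 by 1.80 and IRF8 by 0.89), 1 as lower (BCAR3, -0.84) and 12 did not pass, with a median difference to L428+M of -0.05. With the replicate number as a block, 2 passed as higher and 3 as lower, beside 13.9% higher and 9.87% lower over all genes. Both comparisons share the L428-PAX5+M arrays, and BCAR3 was named after its values were seen. Of 11 measured genes reported as repressed by PAX5 (of 12 listed), 2 were lower, 4 were higher and 5 did not pass, with a median of 0.04. The higher ones were CSF1R, the receptor of macrophage colony-stimulating factor, at 2.76 ± 0.15, the plasma-cell regulator PRDM1 at 1.41 ± 0.14, the adhesion protein EMB at 1.01 ± 0.24 and the secretory regulator XBP1 at 0.49 ± 0.15, whose call was lost without L428-PAX5+M replicate 1 (0.39) and which did not differ detectably from Namalwa (0.03, adjusted p = 0.927). The lower ones were JCHAIN and the Fc receptor chain FCER1G (-0.79 ± 0.15). FCER1G was dim in all 3 groups, with means of 4.43 in L428-PAX5+M, 4.79 in Raji and 5.65 in Namalwa, and its arrays overlapped. The shares of the repressed list were 18.2% lower and 36.4% higher, beside 17.6% and 19.5% of all genes. EMB (0.65) and FCER1G (-0.35) did not pass against Raji alone.

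CSF1R had 9.21, 9.15 and 9.04 in L428-PAX5+M, 6.67, 6.49 and 6.18 in L428+M, 6.26, 6.27 and 6.30 in Raji and 6.67, 6.41 and 6.33 in Namalwa. L428-PAX5+M was therefore the one group of these with a level above the median of all gene values. PRDM1, by contrast, was at 9.33, 9.35 and 8.95 in L428-PAX5+M, beside 9.98, 10.38 and 9.83 in L428+M, against 7.26, 7.21 and 7.32 in Raji and 8.40, 8.43 and 8.19 in Namalwa.

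Germinal-centre genes, from the stage to which both lymphomas are traced, were mostly lower. Of 17 measured members (of 19 listed), 14 were lower, none was higher and 3 did not pass, with a median of -2.38, and 6 met the absent rule. The lower share was 82.4%, whereas 17.6% of all genes were lower and 19.5% higher. MME (CD10) had 5.87, 5.56 and 5.99 in L428-PAX5+M, against 11.42, 11.47 and 11.51 in Raji and 12.05, 12.37 and 12.29 in Namalwa (adjusted p = 5.23e-16). STAP1, a signalling adaptor, had 4.02, 4.01 and 4.13 in L428-PAX5+M, against 10.17, 10.45 and 10.99 in Raji and 9.14, 9.58 and 9.93 in Namalwa (-5.99 ± 0.20, adjusted p = 1.67e-14). TCL1A, a coactivator of AKT kinase, was lower by -5.83 ± 0.16. The 3 members that did not pass were RGS13, LMO2 and UNG, and RGS13 lay between the Burkitt lines.

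Plasma-cell genes moved in both directions. Of 17 measured members (of 18 listed), 9 were lower, 5 were higher and 3 did not pass, with a median of -0.31, and the higher count was 3 without L428-PAX5+M replicate 1. Calls as lower covered 52.9% and calls as higher 29.4%, beside 17.6% and 19.5% of all genes. The lower ones were led by JCHAIN, the ectoenzyme CD38 (-4.73 ± 0.12) and the endoplasmic reticulum protein MZB1 (-3.0 ± 0.12). CD38 had 7.65, 7.35 and 7.41 in L428-PAX5+M, beside 6.4, 6.19 and 5.96 in L428+M, against 12.12, 12.13 and 12.13 in Raji and 12.34, 12.33 and 12.18 in Namalwa. The higher ones were led by IRF4 and PRDM1.

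Antigen presentation to helper T cells depends on HLA class II genes, and 7 of 10 measured members (of 13 listed) passed as lower, with 1 higher, 2 not passing and a median of -1.10. Shares were 70.0% lower and 10.0% higher, beside 17.6% and 19.5% of all genes. HLA-DQA1 had 6.45, 6.17 and 6.04 in L428-PAX5+M, against 9.77, 9.85 and 9.24 in Raji and 7.35, 7.72 and 8.30 in Namalwa (-2.49 ± 0.20, adjusted p = 4.11e-09). HLA-DOB (-2.01 ± 0.18) and HLA-DRB5 (-1.72 ± 0.20) were also lower, and the activator of the class, CIITA, was lower by -0.89 ± 0.16 (adjusted p = 1.58e-04). HLA-DPA1 was the higher member at 0.37 ± 0.14, and its call was lost in 6 of the leave-one-out fits (without L428-PAX5+M replicate 2 or 3, Namalwa replicate 1 or 2, or Raji replicate 1 or 2, lowest 0.32). Set against L428+M, 9 of the 10 passed as lower in L428-PAX5+M, none as higher and 1 did not pass. The median difference to L428+M was -1.05. With the replicate number as a block 9 were lower too, beside 6.55% of all genes without the block and 9.87% with it. The 2 comparisons share the L428-PAX5+M arrays. Class II genes are near-identical in places and may share signal.

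Genes of the leukocyte cytoskeleton and adhesion, which are not specific to B cells, were also lower. Of 25 measured members (of 26 listed), 21 were lower, 1 was higher and 3 did not pass, with a median of -2.02, and 9 met the absent rule. Calls as lower covered 84.0% and calls as higher 4.0%, beside 17.6% and 19.5% of all genes. ARHGDIB, a haematopoietic regulator of small GTPases, had 5.23, 5.55 and 5.36 in L428-PAX5+M, against 12.20, 12.10 and 12.33 in Raji and 11.99, 12.16 and 12.18 in Namalwa (-6.78 ± 0.13, 110-fold, adjusted p = 1.30e-17). CYTIP, a regulator of leukocyte adhesion, had 4.63, 4.68 and 5.15 in L428-PAX5+M, against 11.12, 11.22 and 11.31 in Raji and 10.72, 10.73 and 10.91 in Namalwa (-6.18 ± 0.13, adjusted p = 8.64e-17). Both were as dim in L428+M, between 4.53 and 5.05 on its 6 values. DOCK10, an exchange factor for small GTPases, was the higher member (3.64 ± 0.24), with 5.55 against Raji and 1.74 against Namalwa. Set against L428+M, 10 of the 25 genes passed as lower in L428-PAX5+M, 2 as higher and 13 did not pass. The median difference to L428+M was -0.29. With the replicate number as a block 11 were lower and 2 higher. Of all genes 6.55% were lower and 9.72% higher than in L428+M, or 9.87% and 13.9% with the block.

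PTPRC, the leukocyte common antigen CD45, was among the absent genes but had been brighter in the parent line. It had 4.09, 4.26 and 4.31 in L428-PAX5+M, beside 7.57, 7.20 and 7.43 in L428+M, against 10.44, 10.38 and 10.37 in Raji and 10.15, 10.32 and 10.37 in Namalwa (-6.12 ± 0.13, adjusted p = 1.16e-16). EVI2B, a leukocyte membrane protein, was further apart still, with 4.97, 4.72 and 5.43 in L428-PAX5+M, beside 10.67, 10.86 and 10.77 in L428+M, against 11.27, 11.41 and 11.56 in Raji and 10.74, 10.96 and 11.18 in Namalwa (-6.15 ± 0.16, adjusted p = 5.99e-16). In both genes L428+M lay nearer to the Burkitt lines than L428-PAX5+M did.

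The level in L428+M lay on either side of the median of all gene values for the absent genes. Set against L428+M over all genes, 1790 (9.72%) passed as higher in L428-PAX5+M and 1206 (6.55%) as lower. With the replicate number as a block, since same-numbered arrays of these 2 groups deviated together, 2559 (13.9%) passed as higher and 1818 (9.87%) as lower. All 3 L428+M arrays were under the median of all gene values for 142 of the 168 absent genes, and in these the median difference of L428-PAX5+M minus L428+M was -0.04 (range -1.60 to 1.25). For 23 absent genes the L428+M mean was above that median, with differences to L428+M between -5.73 and -0.30 (median -1.19), and the remaining 3 were mixed. Not every gene followed this split in the test: BID (-0.30), SLC43A1 (-0.47) and REC8 (-0.56) of the 23 did not pass against L428+M, while of the 142 genes 10 passed as lower than in L428+M and 7 as higher (17 and 7 with the block). Beside EVI2B and PTPRC, the 23 include the ETS factor FLI1, with 5.76, 5.24 and 6.01 in L428-PAX5+M, beside 7.83, 7.67 and 7.63 in L428+M, against 9.45, 9.49 and 9.56 in Raji and 9.89, 9.93 and 10.03 in Namalwa. They also include BLK, at 6.76, 7.11 and 7.0 in L428-PAX5+M, beside 7.62, 7.85 and 7.54 in L428+M. These comparisons share the L428-PAX5+M arrays, and the split used the L428+M level, so the differences are a description. FLI1, BID, SLC43A1 and REC8 were named after their values were seen.

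A feature that the rule did not use was the number of zinc finger genes. Of the 168 absent genes 23 (13.7%) had a symbol that begins with ZNF and a number, against 5 of 316 ectopic genes (1.58%) and 494 of all 18417 genes (2.68%). The most distant were ZNF730, with 5.43, 5.21 and 5.58 in L428-PAX5+M, against 9.84, 9.88 and 9.99 in Raji and 10.39, 10.91 and 10.73 in Namalwa (-4.88 ± 0.16), ZNF486 (-4.48 ± 0.23), ZNF737 (-4.46 ± 0.20) and ZNF808 (-4.11 ± 0.18). Their L428+M arrays were between 4.52 and 6.04. Chromosome 19, which holds the large clusters of this family, carried 25 of the 168 absent genes (14.9%), 5 ectopic genes (1.58%) and 7.1% of all genes. The pattern was noticed after the values were seen, zinc finger genes share sequence, and no test was made of it.

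Genes of Hodgkin cells stood above the Burkitt lines in L428-PAX5+M. Of 31 measured members (of 32 listed), 27 were higher in L428-PAX5+M, 2 were lower and 2 did not pass, with a median of 2.76, and 12 met the ectopic rule. This was 87.1% higher and 6.45% lower, beside 19.5% and 17.6% of all genes. The list, like the others, was chosen with earlier results of these data known. IL13RA1, a receptor chain for interleukin 13, had 11.20, 11.04 and 11.68 in L428-PAX5+M, against 4.75, 4.73 and 4.81 in Raji and 4.47, 4.17 and 4.58 in Namalwa (6.73 ± 0.18, 106-fold, adjusted p = 1.06e-15). The T-lineage factor GATA3 had 10.59, 10.38 and 10.30 in L428-PAX5+M, against 5.58, 5.77 and 5.39 in Raji and 6.01, 5.88 and 5.55 in Namalwa (4.73 ± 0.15, adjusted p = 7.34e-15). TNFRSF8, the diagnostic antigen CD30, had 9.25, 9.35 and 9.04 in L428-PAX5+M, against 7.67, 7.53 and 7.85 in Raji and 7.70, 7.54 and 7.35 in Namalwa (1.61 ± 0.18, adjusted p = 4.90e-07). All 3 genes were also bright in L428+M, with means above the median of all gene values.

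Single members with known roles in Hodgkin lymphoma were the transcription factor STAT5A (4.14 ± 0.16), the PD-1 ligands PDCD1LG2 (4.13 ± 0.30) and CD274 (3.49 ± 0.20) and the kinase JAK2 (3.11 ± 0.17). CD274 had 8.82, 9.07 and 8.58 in L428-PAX5+M, beside 7.06, 7.16 and 7.50 in L428+M, against 5.93, 5.82 and 5.89 in Raji and 4.82, 4.82 and 4.75 in Namalwa. These 4 genes, like PLCG2, LYN, BLK, IGKC, VPREB3, TCF12, LTA, IL2RB and the members named only as not passing, were chosen after their values were seen. The lower members were the chemokine CCL22 (-1.04 ± 0.15) and the TNF family ligand CD70 (-0.67 ± 0.20), whose call was lost without L428-PAX5+M replicate 3 (-0.56) and did not pass against Namalwa alone (-0.29).

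Cytokines and chemokines split into a bright set and a dim one. Of 24 measured members (of 26 listed), 11 were higher, 3 were lower and 10 did not pass, with a median of 0.21, and 6 met the ectopic rule. In percent, 45.8% were higher and 12.5% lower, beside 19.5% and 17.6% of all genes. CCL1, a ligand of the chemokine receptor CCR8, had 12.23, 12.32 and 12.44 in L428-PAX5+M, against 6.34, 6.11 and 6.23 in Raji and 6.04, 5.65 and 5.42 in Namalwa (6.36 ± 0.28, 82.4-fold, adjusted p = 1.02e-12). CCL5, which attracts T cells and monocytes, had 10.56, 10.77 and 10.76 in L428-PAX5+M, against 5.39, 5.64 and 4.83 in Raji and 6.58, 6.48 and 5.66 in Namalwa (4.93 ± 0.21, adjusted p = 6.05e-13). Lymphotoxin alpha, LTA, was higher by 4.11 ± 0.16. The lower members were IL16 (-1.72 ± 0.16), CCL22 and IL10 (-0.86 ± 0.13), and IL10 was lower than Raji by -2.05 but not than Namalwa (0.33, adjusted p = 0.10).

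IL31, a cytokine of T helper cells, was bright in L428-PAX5+M alone. It had 10.41, 10.05 and 10.25 in L428-PAX5+M, beside 6.06, 5.2 and 5.6 in L428+M, against 5.20, 5.02 and 4.82 in Raji and 5.25, 5.06 and 5.02 in Namalwa (5.18 ± 0.26, 36.2-fold, adjusted p = 4.28e-12). The 3 L428-PAX5+M arrays were apart from all 9 other arrays listed, which for the Burkitt arrays follows largely from the ectopic rule.

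NF-kB targets and interferon-response genes were also higher in the majority of members. Of 19 measured NF-kB targets (of 20 listed), 13 were higher, 1 (CCL22) was lower and 5 did not pass, with a median of 1.27. Shares were 68.4% higher and 5.26% lower, beside 19.5% and 17.6% of all genes. The feedback inhibitor TNFAIP3 had 12.23, 12.38 and 12.22 in L428-PAX5+M, against 9.76, 9.78 and 9.86 in Raji and 8.35, 8.22 and 8.29 in Namalwa (3.23 ± 0.14, adjusted p = 6.35e-13). The survival gene BCL2A1 (3.06 ± 0.39) and the caspase-8 inhibitor CFLAR (2.92 ± 0.27) were higher as well. Of 27 measured interferon-response genes (of 30 listed), 16 were higher (59.3%), 3 were lower (11.1%) and 8 did not pass, with a median of 1.02. The antiviral GTPase MX2 had 10.92, 10.91 and 11.07 in L428-PAX5+M, against 5.19, 5.23 and 5.30 in Raji and 9.82, 9.63 and 9.73 in Namalwa (3.48 ± 0.14). The lower ones were OAS2 (-1.47 ± 0.18), OAS1 and IFI27 (-1.94 ± 0.18), and IFI27 was bright in Namalwa only, with 9.55, 9.72 and 9.44 there. Against Raji alone 18 of the 27 were higher and 1 lower, and against Namalwa alone 15 were higher and 7 lower. The 3 lower calls therefore did not all hold against Raji. At 4 of the 27 L428-PAX5+M lay between the Burkitt lines.

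Receptor tyrosine kinases, several of which are known from Hodgkin cells, had 11 of 26 measured members higher (of 28 listed), 3 lower and 12 not passing, with a median of 0.12. As shares, 42.3% were higher and 11.5% lower, beside 19.5% and 17.6% of all genes. MET, the hepatocyte growth factor receptor, had 12.49, 12.39 and 12.87 in L428-PAX5+M, against 9.71, 9.56 and 10.21 in Raji and 4.31, 3.99 and 4.46 in Namalwa (5.54 ± 0.33, adjusted p = 5.70e-11). The ephrin receptor EPHB1 had 11.17, 11.12 and 10.29 in L428-PAX5+M, against 6.06, 5.76 and 5.97 in Raji and 5.79, 5.48 and 5.66 in Namalwa (5.07 ± 0.23). Its relative EPHA3 had 9.09, 8.82 and 9.01 in L428-PAX5+M, beside 5.23, 4.93 and 4.81 in L428+M, against 5.12, 5.07 and 5.12 in Raji and 5.21, 5.15 and 4.64 in Namalwa (3.92 ± 0.17, adjusted p = 5.65e-13). The WNT5A receptor ROR1 ran the other way, at 5.81, 6.17 and 6.19 in L428-PAX5+M, against 8.86, 9.08 and 8.67 in Raji and 11.31, 11.10 and 11.05 in Namalwa (-3.95 ± 0.15), as did the insulin receptor INSR (-3.34 ± 0.16).

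**Figure D3:**
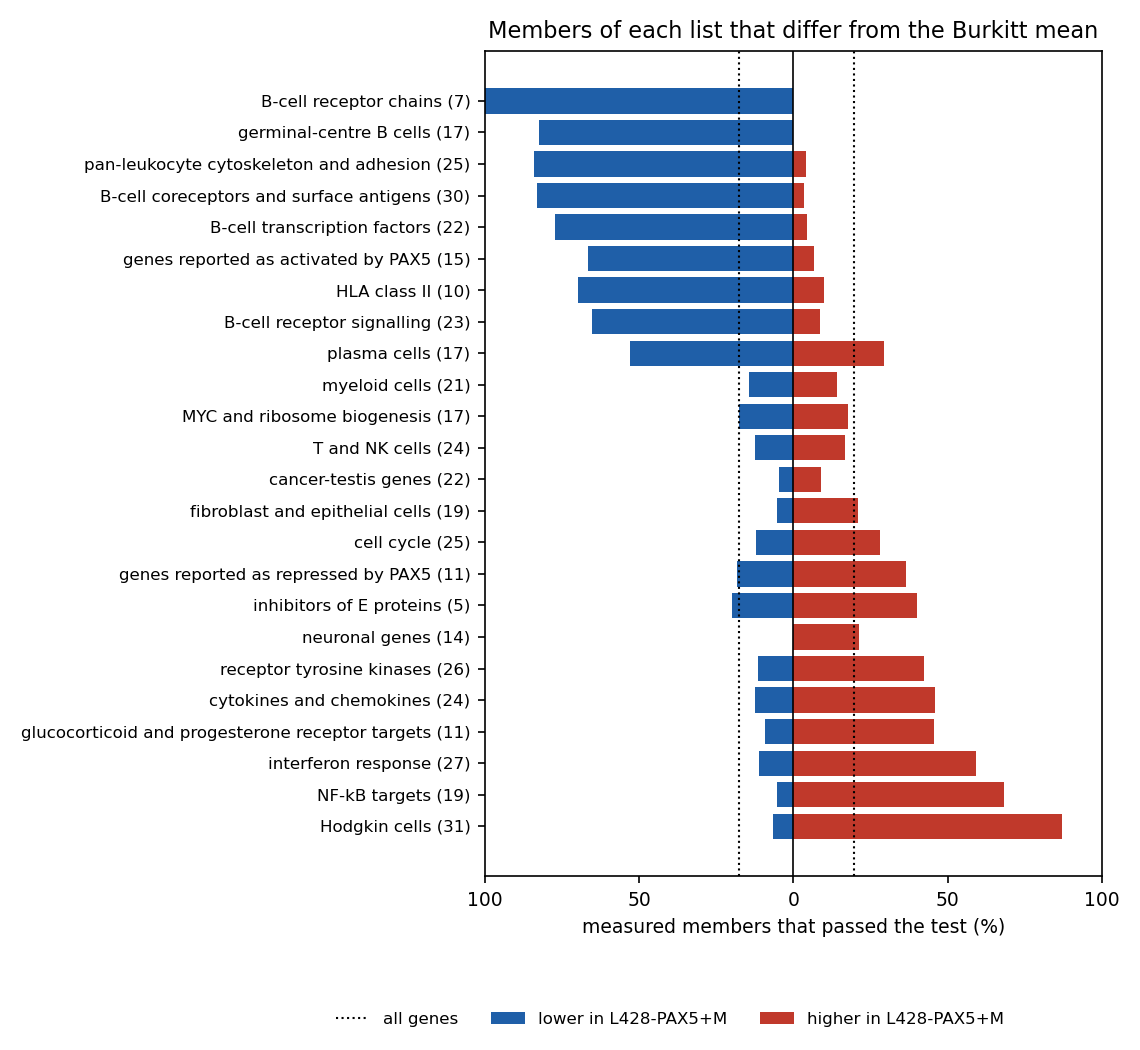
Percentage of measured members of 24 gene lists (number measured in parentheses) that passed as lower (blue, left) or higher (red, right) in L428-PAX5+M than in the Burkitt mean, with dotted lines at the shares over all 18417 genes (17.6% lower and 19.5% higher). B-cell lists extend to the left, and the Hodgkin, NF-kB and interferon lists extend to the right; lists overlap in members.

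The largest difference of all genes belonged to an ectopic gene, GTSF1, which was as bright in the parent line. GTSF1, a germ-line factor of the piRNA pathway, had 12.64, 12.56 and 12.77 in L428-PAX5+M, beside 12.51, 12.13 and 12.26 in L428+M, against 4.42, 5.02 and 4.98 in Raji and 4.73, 4.76 and 4.84 in Namalwa (7.87 ± 0.14, 233-fold, adjusted p = 1.30e-17). PLA2G4A, a phospholipase that releases arachidonic acid, had 11.22, 11.15 and 11.56 in L428-PAX5+M, beside 10.79, 10.73 and 11.06 in L428+M, against 3.75, 3.77 and 4.02 in Raji and 3.94, 3.62 and 3.76 in Namalwa (7.50 ± 0.25, 181-fold). Other large differences among ectopic genes, beside those of IL13RA1, SH2D1B and CCL1 given elsewhere, were those of the aryl hydrocarbon receptor AHR (6.35 ± 0.16), the chemoattractant receptor GPR15 (6.17 ± 0.41), the complement protease CFI (6.10 ± 0.23), the p53 target PERP (5.99 ± 0.20) and the chemokine receptor CCR4 (5.93 ± 0.20). For each of them no L428-PAX5+M array overlapped with a Burkitt array, which follows largely from the ectopic rule.

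CCND2, a D-type cyclin that drives cells through the G1 phase, had 11.75, 11.89 and 11.89 in L428-PAX5+M, beside a mean of 12.16 in L428+M, against 5.71, 5.77 and 5.65 in Raji and 5.78, 5.48 and 5.72 in Namalwa (6.16 ± 0.15, 71.4-fold, adjusted p = 3.60e-16).

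Genes of other lineages differed one by one. Of 24 measured T and NK cell genes (of 26 listed), 4 were higher, 3 were lower and 17 did not pass, with a median of -0.11. The 4 were the adaptor SH2D1B (6.69 ± 0.30), GATA3, the adaptor SH2D1A (3.06 ± 0.28) and the interleukin 2 receptor chain IL2RB (1.79 ± 0.20), whereas the T-cell receptor complex genes CD3D, CD3E and CD3G did not pass (differences -0.24, -0.17 and 0.04). The log2 of the summed signal of these genes was 12.52 to 12.75 on the L428-PAX5+M arrays, against 10.99 to 11.08 in Raji and 11.08 to 11.15 in Namalwa, and 5, 2 and 3 members had a mean above the median of all gene values in these groups. The kinase LCK was lower (-2.01 ± 0.13). The shares of T and NK cell genes called, 16.7% higher and 12.5% lower, were under the 19.5% and 17.6% of all genes.

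Of 21 measured myeloid genes (of 24 listed), 3 were higher, 3 were lower and 15 did not pass, with CSF1R and CD68 (2.27 ± 0.18) as the largest and the monocyte marker CD14 not passing (-0.17). Their summed signal was 11.49 to 11.62 in L428-PAX5+M, against 10.90 to 10.98 in Raji and 10.91 to 11.20 in Namalwa. Of 19 measured fibroblast and epithelial genes, 4 were higher, 1 was lower and 14 did not pass, and their summed signal was 11.50 to 11.88 in L428-PAX5+M, against 10.59 to 10.67 in Raji and 10.35 to 10.60 in Namalwa. Of the myeloid genes 14.3% were called in each direction. Of the fibroblast and epithelial genes 21.1% were higher and 5.26% lower, beside 19.5% and 17.6% of all genes. The part of other cell types in the results was not tested. Fibronectin, FN1, was far ahead of the others, with 11.10, 10.37 and 10.76 in L428-PAX5+M, beside 8.79, 8.67 and 8.58 in L428+M, against 5.50, 5.22 and 5.25 in Raji and 5.39, 5.04 and 5.81 in Namalwa (5.37 ± 0.19), while the collagens COL1A1 and COL1A2 did not pass. The smooth muscle actin ACTA2 (0.80 ± 0.21) lost its call without L428-PAX5+M replicate 3 (0.62) and was -0.027 from Raji (adjusted p = 0.95). EPCAM (-0.41), the lower member, lost its call without L428-PAX5+M replicate 2 or 3 (-0.33 for both), Namalwa replicate 2 (-0.38) or Raji replicate 1 (-0.37), and its difference turned to 0.11 when its probe sets were averaged. Without L428-PAX5+M replicate 3 the higher count was 2.

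Neuronal genes had 3 of 14 measured members higher (of 17 listed, 21.4% beside 19.5% of all genes), none lower and 11 not passing. They were led by the adhesion molecule CNTN1 (5.16 ± 0.23), with 9.80, 9.56 and 9.89 in L428-PAX5+M, against 4.60, 4.59 and 5.21 in Raji and 4.25, 4.06 and 4.86 in Namalwa, and by the microtubule protein MAP2 (3.80 ± 0.12). Cancer-testis genes had 2 of 22 measured members higher (of 26 listed), GTSF1 and MAGEB2 (4.88 ± 0.15), 1 lower and 19 not passing. Their shares were 9.09% higher and 4.55% lower, beside 19.5% and 17.6% of all genes. Cancer-testis genes can share signal with near-identical copies. In both lists and in the 3 lists of other cell types, the 95% interval lay within 2-fold for 11 of 14 neuronal, 19 of 22 cancer-testis, 19 of 24 T and NK cell, 16 of 21 myeloid and 16 of 19 fibroblast and epithelial genes, beside 75.2% of all genes. Most of these members were dim throughout, since 12 neuronal, 19 cancer-testis, 17 T and NK cell, 15 myeloid and 14 fibroblast and epithelial genes had no mean of the 3 groups above the median of all gene values.

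Most ectopic genes were above the median of all gene values in the parent line too. The L428+M mean was above the median of all gene values for 278 of the 316 ectopic genes, with a median difference of L428-PAX5+M minus L428+M of -0.08 (range -3.17 to 3.18). In the test 60 of the 278 passed as lower than in L428+M, 55 as higher and 163 did not pass. With the replicate number as a block 76 were lower and 60 higher. Against L428+M 6.55% of all genes were lower and 9.72% higher, or 9.87% and 13.9% with the block. For 30 ectopic genes all 3 L428+M arrays were under that median, with differences to L428+M between 0.70 and 4.62 (median 2.15), and 8 were mixed. The ectopic rule and this split make each difference of the 30 positive, so these differences are a description. Beside IL31, EPHA3 and CSF1R, the 30 include ZNF382, a zinc finger repressor, with 9.61, 9.78 and 10.14 in L428-PAX5+M, beside 6.13, 5.92 and 6.03 in L428+M, against 4.01, 3.69 and 4.98 in Raji and 5.73, 5.92 and 6.25 in Namalwa. They also include the cytochrome CYP1B1, with 9.70, 9.09 and 9.21 in L428-PAX5+M, beside 6.93, 6.69 and 6.71 in L428+M, against 5.79, 5.06 and 5.76 in Raji and 5.02, 5.21 and 5.42 in Namalwa. Among the 278 genes, carbonic anhydrase CA2 was the one furthest above its parent, with 11.57, 10.93 and 10.12 in L428-PAX5+M, beside 8.10, 7.17 and 7.82 in L428+M. ZNF382, CYP1B1 and CA2 were named after their values were seen.

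**Figure D4:**
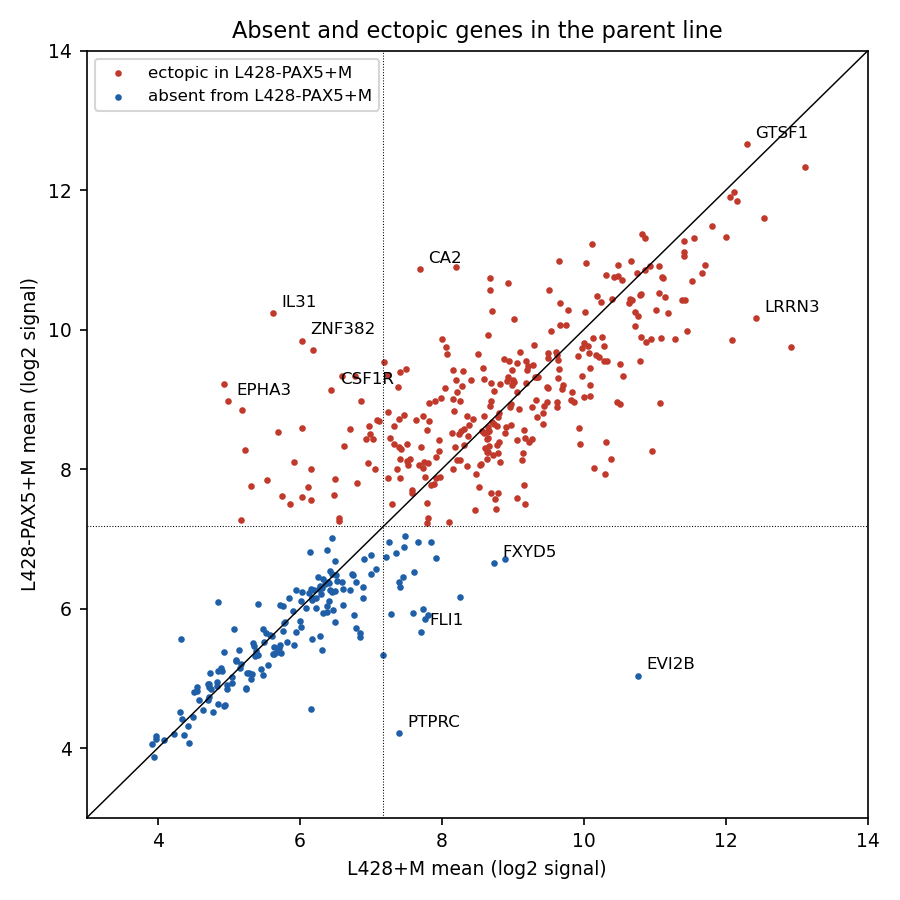
Mean log2 signal in L428-PAX5+M (vertical axis) against L428+M (horizontal axis) for the 168 absent (blue) and 316 ectopic (red) genes; the solid line marks equal levels and the dotted lines the median of all gene values (7.18). Many points lie near the line of equal levels, with EVI2B and PTPRC under it and IL31, EPHA3 and ZNF382 above it.

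**Figure D5:**
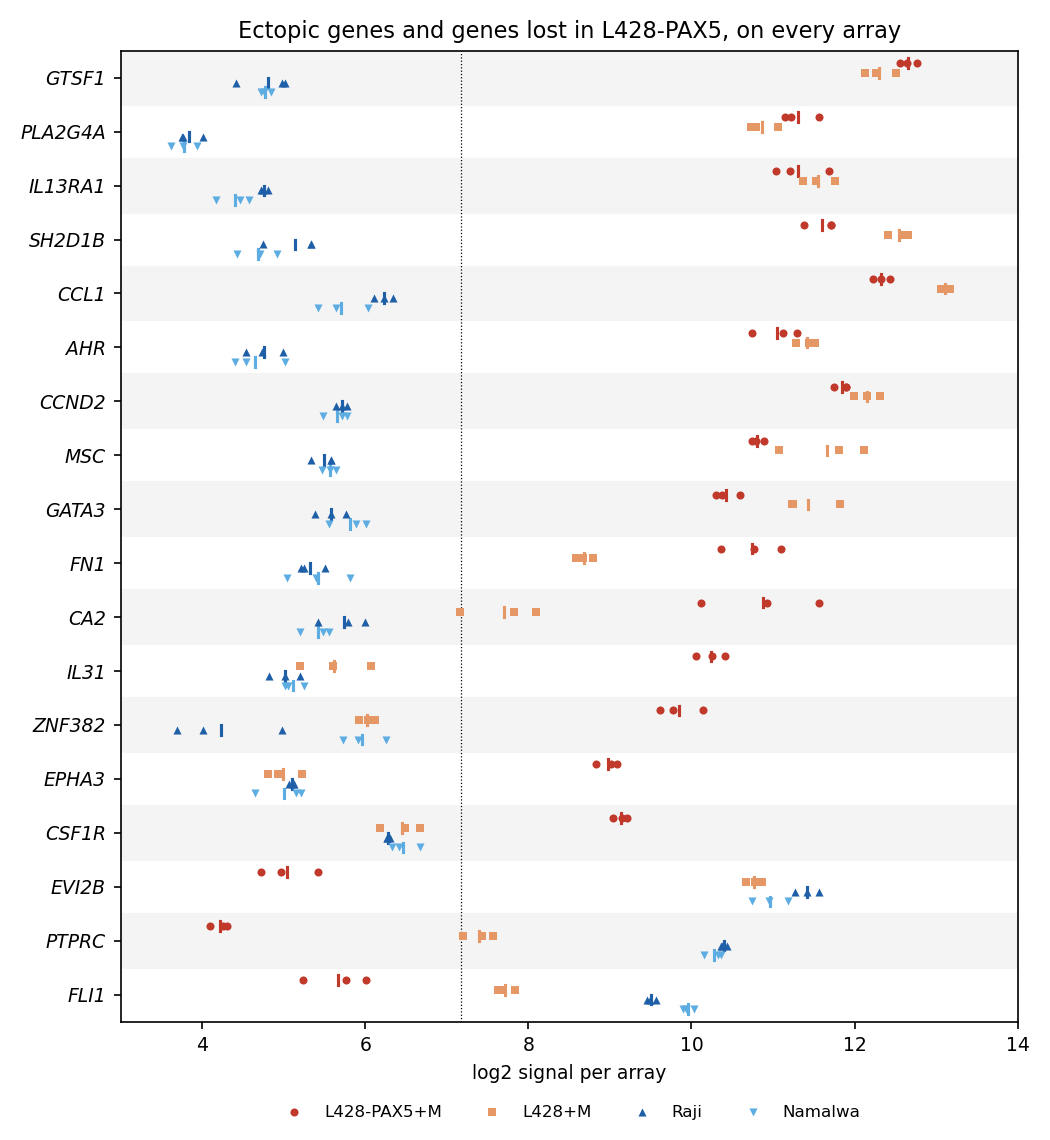
Log2 signal on every array for 15 ectopic genes and for EVI2B, PTPRC and FLI1, with L428-PAX5+M above L428+M, Raji and Namalwa in each row, a short bar at each group mean and a dotted line at the median of all gene values (7.18). GTSF1 and the 8 genes under it are bright in both Hodgkin groups, IL31, ZNF382, EPHA3 and CSF1R in L428-PAX5+M alone, and EVI2B in every group but L428-PAX5+M.

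Growth genes passed in both directions. Of 17 measured genes of MYC and ribosome biogenesis (of 20 listed), 3 were lower, 3 were higher and 11 did not pass, with a median of -0.12. The share of 17.6% in each direction was near the 17.6% lower and 19.5% higher of all genes. For 15 of the 17 the 95% interval lay within 2-fold, beside 75.2% of all genes. MYC, which translocation drives in Burkitt lymphoma, had 11.40, 11.36 and 11.13 in L428-PAX5+M, against 11.41, 11.50 and 11.91 in Raji and 11.84, 11.85 and 11.87 in Namalwa, and the ribosome assembly factor RRS1 was higher by 2.15 ± 0.20. Of 25 measured cell cycle genes, 7 were higher, 3 were lower and 15 did not pass. Their median was -0.02, and 18 intervals lay within 2-fold. The share of higher members was above the 19.5% of all genes, and the share of lower members was under the 17.6%. The count of lower members was 6 after quantile normalization or after subtraction of array medians. With array medians subtracted, 5 MYC and ribosome genes were lower. RRS1 and the cyclin CCNE2 (-1.51 ± 0.16) were the called members of the 2 lists with a difference of at least 2-fold.

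Because mifepristone binds the glucocorticoid and progesterone receptors, their targets were listed beside the comparison. Of 11 measured targets (of 12 listed), 5 were higher in L428-PAX5+M, 1 was lower and 5 did not pass, with a median of 0.55. Higher members were 45.5% and lower ones 9.09%, beside 19.5% and 17.6% of all genes. The phosphatase DUSP1 was higher by 2.0 ± 0.17, the metallothionein MT2A by 1.79 ± 0.29 and the annexin ANXA1 by 1.59 ± 0.17, and the glucocorticoid-induced factor TSC22D3 was lower by -1.68 ± 0.18. L428+M had the same drug, and against it ANXA1 was lower in L428-PAX5+M by -5.35, with arrays at 6.91, 6.23 and 6.72 against a lowest L428+M array of 11.92 (adjusted p = 2.84e-12). TSC22D3 (-1.60) and DUSP1 (-1.19) were also lower than in L428+M, the other 8 targets did not pass against it, and MT2A did not pass against Raji (0.85, adjusted p = 0.0599). The part of mifepristone in the other differences was not tested.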

How the data were processed

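RNA of 18 bulk samples (6 groups of 3) was measured on Affymetrix whole-transcript arrays. The authors deposited 1 log2 value per probe set and array, made with RMA in Partek per the submitters' processing notes, which give no versions; no source used here gives the genome build of the array design. RMA subtracts background and sets all arrays to 1 distribution, so global shifts in RNA content are not measured, and dim signals are compressed. The table held 33297 probe sets, of which 19460 had a single symbol in the platform annotation, 1754 had several and 12083 had none or were not listed; 19429 symbols matched a RefSeq gene table. For 769 genes with several probe sets the brightest was kept, which left 18417 genes. Values ran between 2.24 and 14.64, and array medians between 6.52 and 6.70. Arrays have no read depth, and 3 per group limit the precision.

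Group means were fitted with limma 3.58.1 in R 4.3.3 (lmFit and eBayes) to all 18 arrays (12 residual degrees of freedom, 6.1 from the prior), so the groups not compared add only to the estimate of the spread. Contrasts were L428-PAX5+M minus the mean of the Raji and Namalwa means, minus each line and minus L428+M, with Benjamini-Hochberg adjustment over 18417 genes. Genes and lists were chosen with earlier results of these data known. Named genes were PAX5, the 12 largest differences in each direction among absent and ectopic genes, up to 3 called members per list and direction of the 24 lists, a set of fixed genes, and the 5 largest in each direction between the Burkitt lines. For the comparison with L428+M, same-numbered arrays correlated at 0.484 to 0.57 in their deviations from group means (3 pairs; others -0.414 to 0.021), so the replicate number was also fitted as a block and its counts stand beside those without it. The fit was tested on simulated data. Alternatives were another scaling, probe-set averaging, a filter on dim genes, array weights, a trend with robust fit, only 9 arrays, each replicate left out, a replicate block, each Burkitt line alone, and other limits of level and fold.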

Additional observations from a re-analysis of the deposited data

Results flagged for a closer look

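For some genes L428-PAX5+M lay between the Burkitt lines, higher than one and lower than the other, with both differences past limma's adjusted p of 0.05. These genes were named for a large or listed difference between Raji and Namalwa, which was tested in the same fit, and 245 genes (1.33%) had this pattern, while 3545 genes (19.2%) differed between Raji and Namalwa. The germinal-centre regulator RGS13 was 5.51 higher in Raji than in Namalwa, with L428-PAX5+M -3.04 from Raji and 2.47 from Namalwa. The WNT-pathway factor LEF1 differed between Raji and Namalwa by -6.40, with L428-PAX5+M 2.96 from Raji and -3.44 from Namalwa. The surface antigen CD24 differed between the lines by -5.87, with L428-PAX5+M 3.18 from Raji and -2.69 from Namalwa. NOTCH1, a T-lineage receptor reported as repressed by PAX5, differed between the lines by -1.72, with L428-PAX5+M 0.90 from Raji and -0.82 from Namalwa.

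The other genes with this pattern that the naming rule picked were BNIP3 (Raji minus Namalwa -6.68), IFI44L (-6.06) and S100A10 (-5.96), which were brighter in Namalwa, and AK4 (5.76), SLC25A27 (5.14), SWAP70 (4.02) and ADNP2 (3.81), which were brighter in Raji. No average over the 2 Burkitt lines describes any of these genes.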

How the results depend on the processing

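The 3 arrays per group and the dim end of the array signal limit these comparisons, and line, drug and medium cannot be told apart in any setting. Of 137 recomputed counts over all genes 132 stayed within 1.5 times the count first given, and of 2635 recomputed differences of named genes 2548 kept direction and call, 63 lost their call, 8 gained one and 16 turned. Leaving out 1 array at a time gave 2724 to 3212 lower genes, 3040 to 3509 higher, 164 to 178 absent, 311 to 330 ectopic and 179 to 223 between the lines, with PAX5 at 1.69 to 1.80. Without the arrays numbered 3, a setting chosen after seeing the data, the counts were 2620 lower, 3069 higher, 179 absent and 334 ectopic, and PAX5 was 1.68 higher. Subtracting array medians gave 4176 lower and 3157 higher genes, and moved the median of all genes to -0.15. Weighting the arrays gave 4375 lower and 4160 higher, with weights whose estimate did not converge. Across the settings that keep both lines and the limits of level and fold, 162 to 168 absent and 300 to 316 ectopic genes were shared with the first lists.

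A minimum of 2-fold gave 280 absent and 514 ectopic genes, which follows from the wider rule. Against Raji alone 522 genes were ectopic and against Namalwa alone 307 were absent, since 1 line then had to meet the rule. Against Raji alone RASGRP1 (-0.57), ACTA2 (-0.027), LEF1 (2.96), AK4 (-1.97) and ADNP2 (-0.61) turned. Against Namalwa alone IL10 (0.33), CR2 (0.20), NOTCH1 (-0.82), BNIP3 (-1.20), IFI44L (-1.84), S100A10 (-0.41), CD24 (-2.69), RGS13 (2.47), SLC25A27 (1.81) and SWAP70 (1.79) turned. Averaging probe sets turned EPCAM (0.11), and the cause was not tested.

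Same-numbered arrays of the 3 groups correlated at 0.051 to 0.541 in their deviations from group means (9 pairs, median 0.325). Others correlated at -0.46 to 0.416 (18 pairs, median -0.326). The ranges overlap, so the numbers were not taken as pairs in the main fit. The arrays numbered 3 did deviate together, at 0.438 to 0.541 with one another and -0.46 to -0.2 with the rest. With a replicate block 4026 genes were lower, 4108 higher, 168 absent, 316 ectopic and 354 between the lines, and 3 list counts moved by over 1.5 times: PAX5-activated genes higher (2), MYC and ribosome genes lower (5) and glucocorticoid and progesterone receptor targets lower (2). Against L428+M, whose numbers pair with those of L428-PAX5+M in the data, the block gave 1818 lower and 2559 higher genes, and leaving out 1 array at a time gave 869 to 1215 lower and 1333 to 1800 higher, settings chosen after seeing the data.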

Other observations

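Some single genes outside the lists were picked among the absent and ectopic genes after their values were seen, and they do not stand for their families, which were not counted or tested. Absent receptors of the SLAM family, through which lymphocytes contact one another, were SLAMF6 (-5.81 ± 0.16), CD48 (-5.26 ± 0.18) and CD84 (-3.95 ± 0.13), while their adaptors SH2D1A and SH2D1B were bright there and dim in both Burkitt lines. Ectopic cytokine receptors included IL5RA (5.46 ± 0.25), the decoy receptor IL1R2 (3.85 ± 0.14), IL18R1 (3.73 ± 0.21), the interleukin 33 receptor IL1RL1 (3.55 ± 0.26) and CRLF2 (3.02 ± 0.24).

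Ectopic genes with a role at cell junctions included the tricellular junction protein MARVELD2 at 4.61 ± 0.23, the scaffold TJP1 at 4.38 ± 0.17, JAM3 at 3.34 ± 0.18 and the catenin CTNNA1 at 3.20 ± 0.15. The DNA sensor CGAS was ectopic (5.60 ± 0.23) and the RNA sensor TLR7 absent (-2.36 ± 0.19). Both Burkitt lines carry Epstein-Barr virus and L428 does not, and the part of the virus in these differences was not tested.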
